A study of Mus musculus with 4 samples.

Results

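The nuclear receptor genes described here are 39 named mouse genes of 21887 protein-coding genes placed on chromosomes. They were taken from a list and not by a measured value, but earlier results of these data were known when they were chosen. They held 113 of the 39615 genomic regions bound by the transcription factor OTX2 in 4 deposited region lists. CUT&RUN, in which an antibody brings a nuclease to a chromatin protein and the released DNA is sequenced, was run in 4 libraries of primitive streak (PS) cells. Of these, 3 used an antibody against the HA tag of OTX2, in the cell lines 7H, 7H1 and 7H2 OTX2-dTAG-EGFP, and 1 used control IgG in the 7H2 line. All 4 libraries share a BL6/129 hybrid genotype and the tagged OTX2. The PS cells came from epiblast stem cells (EpiSCs), which were cultured with 20 ng/ml Activin, 12.5 ng/ml FGF2 and 175 nM NVP. PS cells were made from these by 16 h with 40 ng/ml Activin A and 3 uM CHIR. Definitive endoderm (DE) cells had a further 24 h with 100 ng/ml Activin A and 100 nM LDN. No library of EpiSCs or of DE cells is among the 4. The libraries behind the DE and EPI calls of the lists, with their clones, antibody and replicates, are not described here.

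The lists hold regions bound in PS only (1634), in PS and DE (6157), in DE only (31445), and in PS together with a stage that the list name writes as EPI (379). They give the position of each region with no height and no value per library. Depth per library and the spread between clones are therefore unknown, so every value below is a description of the lists and none comes with a test between stages. The length of a list also moves with depth and with the calling of regions, so counts are set beside those of all protein-coding genes in the same list. For assignment on mm10, the midpoint of a region was looked up in the gene spans and the shortest span holding it was taken. A midpoint outside all spans went to the gene whose start or end was nearest, up to 100 kb away.

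Nuclear receptors are transcription factors that share a zinc finger DNA-binding domain and a ligand-binding domain, and many are switched by small lipophilic ligands such as steroids, thyroid hormone, fatty acids, bile acids or vitamin D. Many bind the half-site AGGTCA as monomers, homodimers or heterodimers with a retinoid X receptor. In the early embryo Nr5a2 and Nr6a1 are known for opposite effects on Pou5f1, and in endoderm-derived liver and gut several members control bile acid, lipid and drug metabolism. OTX2 is a homeodomain factor of the bicoid type, for which TAATCC is the core of the known site.

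The stretches before gene starts that a region overlapped are shown first, because they are the places where sequence, gene and region coincide. RefSeq windows (GRCm38.p6, the mm10 assembly) were given for 36 of the 39 genes, all but Nr3c1, Nr5a1 and Thra. In the 250 bases before the start, 6 of 51 windows of these genes overlapped a DE only region, and 0 overlapped a region of the other lists. These 6 are 11.8% of the members' windows, beside 10.1% of all 32851 windows. Each line gives the 250 bases before the start, 5′ to 3′ along the gene, with the bases inside the DE only region in capitals.
Esrrg (chr1:187997577-187997826, plus strand): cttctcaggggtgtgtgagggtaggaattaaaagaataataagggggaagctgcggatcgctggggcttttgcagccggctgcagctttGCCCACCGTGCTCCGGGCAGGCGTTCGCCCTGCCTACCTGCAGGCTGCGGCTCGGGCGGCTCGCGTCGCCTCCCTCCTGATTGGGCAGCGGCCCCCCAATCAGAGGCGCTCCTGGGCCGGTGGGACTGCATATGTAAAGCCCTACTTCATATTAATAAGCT
Thrb (chr14:17660710-17660959, plus strand): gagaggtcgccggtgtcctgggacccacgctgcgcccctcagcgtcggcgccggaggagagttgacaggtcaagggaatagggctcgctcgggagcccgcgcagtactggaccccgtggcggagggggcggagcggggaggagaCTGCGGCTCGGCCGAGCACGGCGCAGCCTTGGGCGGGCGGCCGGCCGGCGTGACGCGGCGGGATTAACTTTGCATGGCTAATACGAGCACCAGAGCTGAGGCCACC
Nr4a1 (chr15:101266596-101266845, plus strand): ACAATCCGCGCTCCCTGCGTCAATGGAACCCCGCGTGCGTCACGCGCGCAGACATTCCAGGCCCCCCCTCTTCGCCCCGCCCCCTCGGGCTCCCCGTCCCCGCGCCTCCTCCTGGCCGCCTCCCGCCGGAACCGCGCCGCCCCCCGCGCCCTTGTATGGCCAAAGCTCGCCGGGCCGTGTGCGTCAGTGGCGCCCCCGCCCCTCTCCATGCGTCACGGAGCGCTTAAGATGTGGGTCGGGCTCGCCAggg
Rorb (chr19:19111197-19111446, minus strand): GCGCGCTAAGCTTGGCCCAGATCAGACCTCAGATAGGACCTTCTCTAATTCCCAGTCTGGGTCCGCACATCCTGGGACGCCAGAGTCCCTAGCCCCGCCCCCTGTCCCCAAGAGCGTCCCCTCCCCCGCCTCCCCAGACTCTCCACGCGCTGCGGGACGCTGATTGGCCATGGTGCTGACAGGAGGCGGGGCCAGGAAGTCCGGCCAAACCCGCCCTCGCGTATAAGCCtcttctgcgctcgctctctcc
Nr2c2 (chr6:92092183-92092432, plus strand): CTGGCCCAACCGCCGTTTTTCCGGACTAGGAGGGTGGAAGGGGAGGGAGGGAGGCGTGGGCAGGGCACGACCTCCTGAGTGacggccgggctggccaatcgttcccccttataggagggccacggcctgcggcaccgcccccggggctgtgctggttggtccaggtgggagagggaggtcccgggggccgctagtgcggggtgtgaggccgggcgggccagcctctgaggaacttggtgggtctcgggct
Pgr (chr9:8899583-8899832, plus strand): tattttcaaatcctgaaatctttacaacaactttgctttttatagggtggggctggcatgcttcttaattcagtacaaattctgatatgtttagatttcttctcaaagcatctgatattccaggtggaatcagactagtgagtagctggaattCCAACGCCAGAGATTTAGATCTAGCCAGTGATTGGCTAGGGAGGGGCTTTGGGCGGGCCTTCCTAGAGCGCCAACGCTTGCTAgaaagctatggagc

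The regions at Esrrg and Thrb also held the start itself, and the other 4 ended before it. The DE only regions covered 247 of the 250 bases at Nr4a1, 229 at Rorb, 161 at Esrrg, 106 at Thrb, 83 at Pgr and 81 at Nr2c2. TAATCC, searched on both strands, occurred in 1 of these 6 windows, that of Thrb, where it begins at base 205 of the printed window on the reverse strand, inside the capitals. AGGTCA, searched on both strands, also occurred in the Thrb window alone of the 6, at base 67 on the forward strand and outside the region. Among all 32851 windows 6.25% held TAATCC and 14.0% held AGGTCA, and among the 3323 that a DE only region overlapped these were 6.17% and 10.5%. The 51 windows of the receptor genes held TAATCC in 5.88% and AGGTCA in 19.6%. The shares with TAATCC thus lay between 5.88% and 6.25% in these sets, and no match says only that these letters are not in the window. The region at the Thrb start lies inside the Thrb span but is not among the 113. Its midpoint also lies in the shorter span of another gene, LOC115488350, to which the rule assigned it.

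Most regions at the receptor genes were bound in DE alone, 96 of the 113. So were most regions of the 4 lists together, 31445 of 39615. The DE only regions of the receptor genes lay at 31 of the 39 genes (79.5%), where 50.1% of all protein-coding genes had at least 1. The PS and DE list held 13 regions in 10 genes (25.6%, beside 16.3% of all genes). The PS only list held 4 regions in 4 genes (10.3%, beside 5.6% of all genes), and the EPI and PS list held 0 (beside 1.45% of all genes). With all lists together 32 of the 39 genes had a region, where 54.7% of all genes did. The 7 without any were Nr0b1, Nr0b2, Nr1i3, Nr2c1, Nr5a1, Rxrb and Esr2.

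Receptor genes have long territories, which raises such shares. The territory of a gene is the stretch of bases that the rule would assign to it, and its median was 104 kb for the 39 genes and 45.1 kb for all genes. The 1000 protein-coding genes closest in territory length to each member, taken member by member, would give 23.0 genes with a DE only region, 8.78 with a PS and DE region and 3.13 with a PS only region. The observed 31, 10 and 4 lay above these values, most clearly for DE only. At the mean rate over all territories the 5.78 Mb of the 39 genes would hold 83.1 DE only, 16.3 PS and DE, 4.32 PS only and 1.01 EPI and PS regions, so the counts of 13, 4 and 0 lie at or below the mean rate. The DE only count of 96 lies above it, and Esrrg alone held 24 of the 96 (25.0%). Without Esrrg the other genes held 72 DE only regions, against 72.6 at the mean rate. That rate still counts genes elsewhere that hold many regions. More DE only regions than the mean rate gives were held by 19 of the 39 genes, beside 37.9% of all genes. The median density was 1.43 DE only regions per 100 kb for the 39 genes and 0.201 for all genes. These shares and medians were not matched for territory length.

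**Figure D1:**
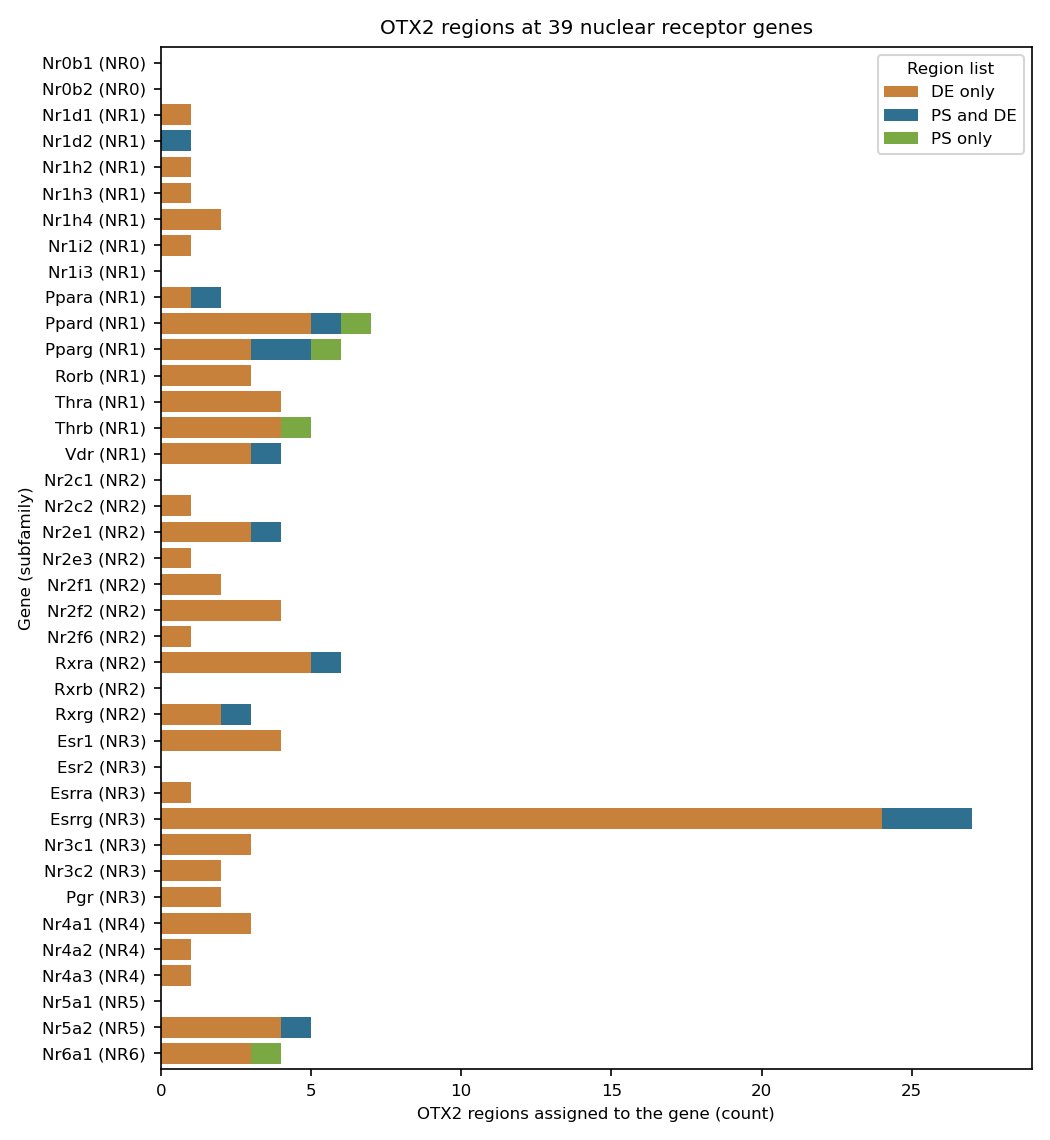
Bars give the number of OTX2 regions (x axis, count) assigned to each of the 39 nuclear receptor genes (y axis, ordered by subfamily), coloured by region list. Esrrg held 27 regions, Ppard 7, Pparg and Rxra 6 each, and 7 genes held 0.

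**Figure D2:**
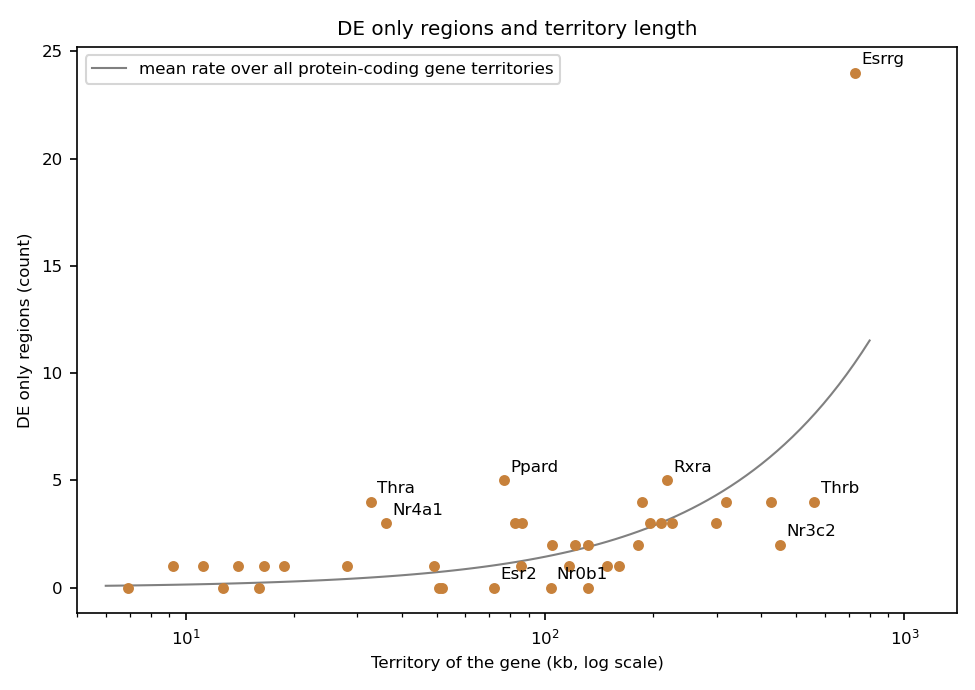
Each point is 1 of the 39 genes, with its territory in kb on a log axis and its count of DE only regions on the y axis, and the line is the mean rate over all protein-coding gene territories (1.44 per 100 kb). Esrrg, Thra, Ppard and Nr4a1 lie above the line, and Nr3c2 and Thrb lie below it.

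Esrrg, which encodes an estrogen-related orphan receptor known for control of oxidative metabolism, held the most regions of the 39 genes. Its 24 DE only and 3 PS and DE regions all lay inside the gene span (chromosome 1, 187608510 to 188214885, plus strand, 606 kb). The mean rate over its territory of 730.4 kb would give 10.5 DE only and 2.06 PS and DE regions. Of the 1000 protein-coding genes closest in territory length, 0.3% held at least as many DE only regions, and 15.2% at least as many PS and DE regions. One DE only region lay 21.7 kb from the 5′ end of the span, and all other regions lay 195 to 556 kb from that end. The DE only region at 187997666 to 187997908 covered an internal start, with its midpoint 0.04 kb before it. This is the start printed above. The PS and DE regions lay at 187900837 to 187900925, at 187979749 to 187979806 and at 188103589 to 188103676. The nearest DE only regions were 0.883, 5.04 and 31.0 kb from them. Esrra, which encodes another estrogen-related receptor, held 1 DE only region in its territory of 11.21 kb, 0.521 kb after its start.

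The peroxisome proliferator-activated receptors, which bind fatty acids and pair with RXR, held 15 regions in 3 genes. Ppard, which is widely expressed, held 5 DE only, 1 PS and DE and 1 PS only region. Its 5 DE only regions compare with 1.11 at the mean rate over 76.82 kb, and 3.0% of genes of like territory held as many. At its 3′ side, DE only regions at 28302551 to 28302705 and 28303177 to 28303352 and a PS and DE region at 28304282 to 28304388 (chromosome 17) followed each other within gaps of 0.471 and 0.929 kb, 1.16 to 2.87 kb beyond the gene. The PS only region of Ppard lay inside the gene, at 28270382 to 28270485, 2.54 kb from a DE only region.

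Pparg, the regulator of fat cell formation, held 3 DE only, 2 PS and DE and 1 PS only region, all 6 inside the gene. Its DE only count was close to the mean rate (2.82), and 11.7% of genes of like territory held as many PS and DE regions. Each PS and DE region had a DE only region beside it, at gaps of 1.05 and 0.611 kb, in the 3′ part of the gene (chromosome 6). The PS only region, at 115385863 to 115385986, stood 58.5 kb from the nearest DE only region. Ppara, which drives fatty acid oxidation in liver, held 1 PS and DE region, 5.24 kb upstream of the gene at 85729572 to 85729779 (chromosome 15), and 1 DE only region 21.8 kb upstream.

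The thyroid hormone receptor genes held 4 DE only regions each but in very different territories. At Thra (chromosome 11, 98740776 to 98769006) these lay within 32.83 kb, a density of 12.2 per 100 kb against the mean rate of 1.44. Of genes with a like territory, 1.2% held as many. All 4 lay between 98740657 and 98744280, at the side of the gene span with the lower coordinates. The midpoint of the first was 0.042 kb outside the span. No strand was given for Thra, so this side is not named as start or end. At Thrb (chromosome 14) the 4 were spread over a territory of 561.2 kb, where the mean rate would give 8.07, and 60.1% of genes of like territory held as many. Thrb also held a PS only region at 17787069 to 17787156, inside the gene and 49.6 kb from a DE only region.

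The other NR1 genes held at most 4 regions each, several of them in short territories. Their DE only counts lay above the mean rate at Vdr (1.24), Nr1h4 (1.51), Nr1d1 (0.238), Nr1h2 (0.201), Nr1h3 (0.27) and Nr1i2 (0.706). At Rorb (4.31), Nr1d2 (1.89) and Nr1i3 (0.183) they lay below it. Vdr, the vitamin D receptor gene, had 3 DE only regions and 1 PS and DE region, which lay at 97863208 to 97863386 (chromosome 15), 0.449 kb from a DE only region and inside the gene. Rorb, an orphan receptor gene of retina and cortex, had 3 DE only regions, of which 1 lay just before its start (shown above) and 1 lay 2.48 kb into the gene. Nr1h4, which encodes the bile acid receptor FXR, had 2 DE only regions inside the gene. Among the REV-ERB genes of the circadian clock, Nr1d1 had 1 DE only region, and Nr1d2 had 1 PS and DE region at 18218767 to 18218942 (chromosome 14) and 0 DE only regions. Nr1d2 was the only member of the 39 with a PS region and without a DE only region. The oxysterol receptor genes Nr1h2 and Nr1h3 and the xenobiotic receptor gene Nr1i2 held 1 DE only region each. The region at Nr1h3 (91202699 to 91202858, chromosome 2) lay 0.051 kb inside the 5′ end of that gene's span and 0.034 kb from an end of Acp2. It was 7.66 kb before the nearest start of Nr1h3 that had a window.

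Over the 14 NR1 genes the lists held 29 DE only, 6 PS and DE and 3 PS only regions. The mean rate would give 25.2, 4.93 and 1.31. The subfamily thus held 3 of the 4 PS only regions and 6 of the 13 PS and DE regions of the 39 genes, on counts too small to rank subfamilies.

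Among the retinoid X receptor genes, whose products are the common partners of NR1 receptors, the counts had the same order as the gene lengths. Rxra held 5 DE only regions and 1 PS and DE region, Rxrg 2 and 1, and Rxrb 0 in a territory of 6.91 kb. The PS and DE region of Rxra lay 2.05 kb after a start, at 27679152 to 27679353 (chromosome 2), and 3 of its DE only regions lay 35.1 to 44.2 kb upstream. That of Rxrg was the PS and DE region closest to a start at any of the 39 genes, at 167598446 to 167598560 (chromosome 1), with its midpoint 0.141 kb after it.

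The other NR2 genes include regulators of neural and photoreceptor fate. Nr2e1, which encodes the neural stem cell receptor TLX, held 3 DE only regions and 1 PS and DE region, at 42567340 to 42567457 (chromosome 10). The COUP-TF genes Nr2f2, a regulator of vein and mesenchyme development, and Nr2f1 held 4 and 2 DE only regions. Of the 4 at Nr2f2, 1 was inside the gene and 3 lay 5.5 to 64.7 kb beyond its 3′ end. Nr2f6, Nr2e3 and Nr2c2 held 1 each, that of Nr2c2 with its midpoint 0.225 kb before its start and that of Nr2e3 the widest region of the 113, with 457 bp. The 10 NR2 genes held 19 DE only regions, against 13.3 at the mean rate.

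Apart from Esrrg and Esrra, the steroid receptor branch was near or below the mean rate. Esr1, the estrogen receptor gene, held 4 DE only regions (6.11 at the mean rate), and 3 of these lay within 11.5 kb of a start, 1 of them 0.515 kb before it. The glucocorticoid receptor gene Nr3c1 held 3 (3.25 at the mean rate), the mineralocorticoid receptor gene Nr3c2 held 2 (6.47), and the progesterone receptor gene Pgr held 2 (2.61), of which 1 had its midpoint 0.056 kb before a start. Esr2 held 0, where 1.04 would be given by the mean rate. These genes held 0 regions of any list that includes PS.

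Nr4a1, an immediate-early gene induced by many stimuli, held 3 DE only regions in a territory of 36.22 kb, and 6.4% of genes of like territory held as many. One of them, at 101266556 to 101266842 (chromosome 15), covered nearly all of the window before its start and ended short of the start. Nr4a2 and Nr4a3 held 1 each, 34.0 and 2.75 kb from a start.

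Nr5a2 and Nr6a1, the receptor genes linked to Pou5f1, were among the 12 of the 39 genes with a region bound in PS. Of genes with a territory like that of Nr5a2, 43.4% held a PS and DE region. For PS only the mean rate would give 0.157 regions at Nr6a1. Over the 39 genes it would give 4.32, and 4 were held. Nr5a2 held 1 PS and DE region at 136765152 to 136765249 (chromosome 1), 77.4 kb beyond its 3′ end and 3.77 kb from a DE only region, with Zfp281 as the next gene at 135.0 kb. It held 4 DE only regions, close to the 4.57 at the mean rate, and 49.0% of genes of like territory held as many. Nr6a1 held a PS only region inside the gene, at 38917436 to 38917522 (chromosome 2), 8.98 kb after its start, and 3 DE only regions (3.03 at the mean rate), of which 1 lay 0.82 kb upstream. Nr0b1, whose protein lacks the usual DNA-binding domain and is known from embryonic stem cells, held 0 regions of any list, as did Nr0b2, a bile acid feedback regulator of liver.

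**Figure D3:**
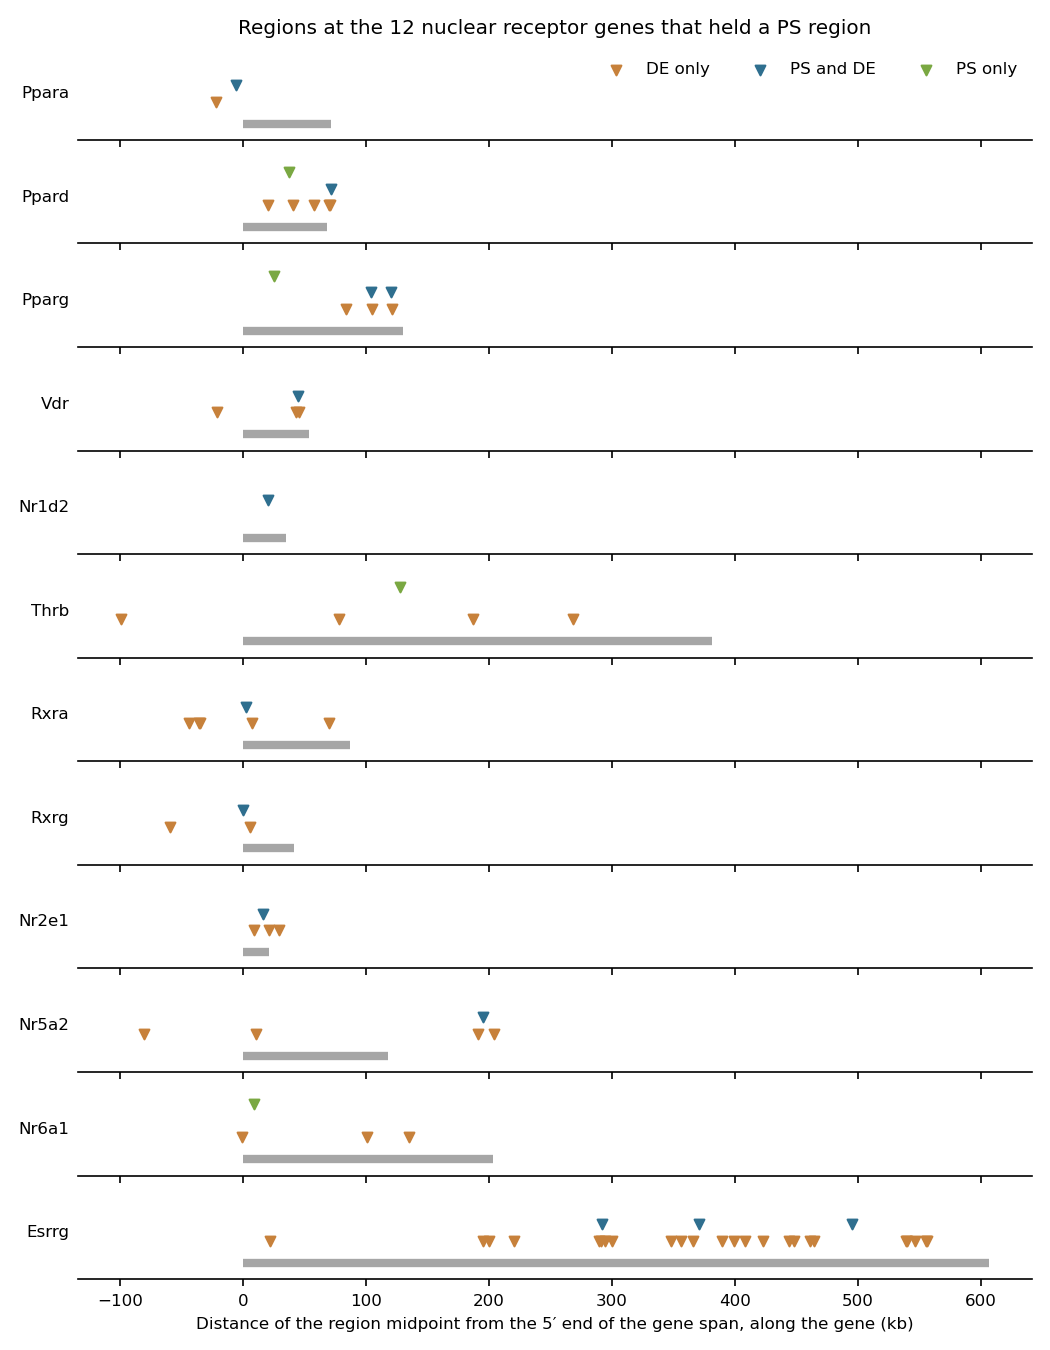
Triangles give region midpoints by list at the 12 genes that held a region bound in PS, as the distance in kb from the 5′ end of the gene span along the gene (x axis), and the grey bar is the gene span. At Esrrg all 27 regions lie inside the span, and at Vdr, Ppard, Pparg and Nr5a2 the PS and DE regions stand beside DE only regions.

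Regions bound in PS and DE often had a DE only region nearby. Of the 13 at receptor genes, 12 had a DE only region at the same gene and 10 (76.9%) had one within 10 kb. Over all assigned PS and DE regions 45.3% had a DE only region within 10 kb at the same gene. Since 3 of the 13 lie at Esrrg and 2 at Pparg, they are not independent, and the difference was not tested. Of the 4 PS only regions, 2 had a DE only region within 10 kb, where 33.8% of all assigned PS only regions did. Of the 81 pairs of neighbouring regions at 1 receptor gene, 9 (11.1%) were at most 1 kb apart, and over all genes 13.1% were.

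Receptor gene regions lay mostly inside genes. Inside the span of a gene were 69.8% of the 96 DE only regions (95% Wilson interval 60.0 to 78.1, counting error only). Of all assigned DE only regions 54.4% were inside. Esrrg alone gave 24 of the 67 DE only regions inside, and none of its regions lay outside. Regions of 1 gene are not independent, which the interval does not take into account. For PS and DE the shares inside were 76.9% of 13 (49.7 to 91.8) at receptor genes and 53.0% of all assigned. All 4 PS only regions were inside, and 50.8% of all assigned PS only regions. Within 1 kb of a gene end, meaning either end of a span, were 9.38% of the DE only regions (5.01 to 16.9). Of the 13 PS and DE regions 1 was (7.69%). The shares were 16.3% and 12.1% for all assigned regions of these lists. Longer genes have more of their territory inside and far from their ends, and the part of gene length in this difference was not tested. Exons, introns and UTRs could not be told apart with the gene spans used here.

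**Figure D4:**
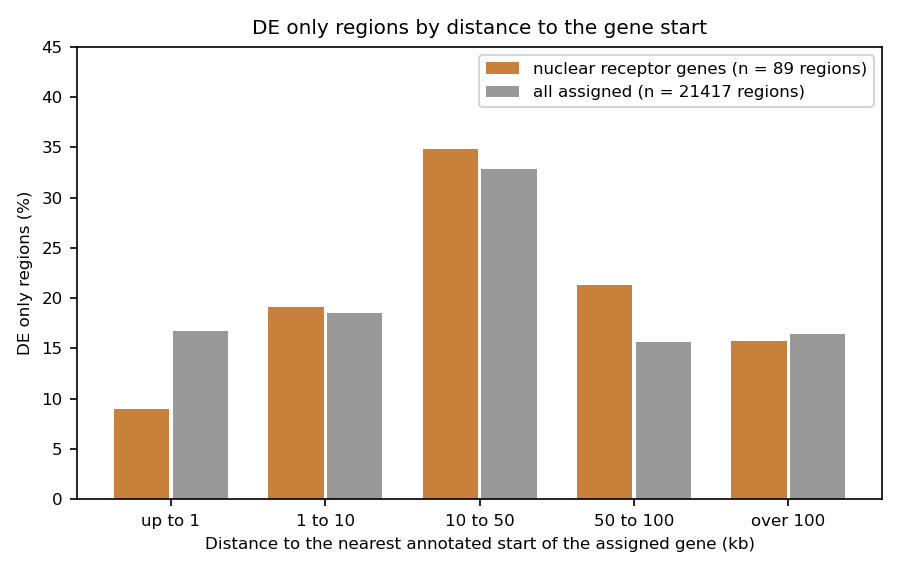
Bars give the share of DE only regions (y axis, percent) by distance in kb from the region midpoint to the nearest annotated start of the assigned gene, for 89 regions at receptor genes with a start and 21417 regions at all genes with a start. Up to 1 kb from the start lay 8.99% of the former and 16.7% of the latter, and from 10 to 50 kb 34.8% and 32.9%.

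Distances were also measured to the starts of the genes with a RefSeq window. The median was 36.2 kb for DE only and 42.8 kb for PS and DE regions of the receptor genes, and 23.1 and 24.9 kb for all assigned regions with a start. Within 1 kb of a start were 8 DE only regions, at Nr2c2, Nr4a1, Nr6a1, Esr1, Esrra, Esrrg, Rorb and Pgr, and 1 PS and DE region, at Rxrg. Regions of Thra and Nr3c1, which had no window, are not counted. Nor is the DE only region over the Thrb start, which was assigned to LOC115488350. The median width of DE only regions was 138.5 bp at the receptor genes and 118 bp over all assigned regions, and that of PS and DE regions was 118 and 121 bp.

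Some receptor genes outside the 39 and coregulator genes also held regions, and single genes are given here with no count over a list. Rarb, a retinoic acid receptor gene, held 24 DE only and 5 PS and DE regions. Rora, an orphan receptor gene, held 15 DE only, 2 PS and DE and 4 PS only regions. Esrrb, an estrogen-related receptor gene of pluripotent cells, held 10 DE only and 4 PS and DE regions, and Rara held 4 and 2. The coactivator genes Ppargc1b and Ppargc1a held 12 and 11 regions over the 4 lists, and Ncoa1, Ncoa2 and Nrip1 held 6 each. The acetyltransferase gene Ep300 held 1 EPI and PS region.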

How the data were processed

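CUT&RUN was run in 4 PS libraries, 3 with the antibody against HA-tagged OTX2 and 1 with control IgG. The authors deposited 4 region lists with chromosome, start and end alone, per the file contents, with no score or signal. The submitters' processing notes name mm10, the tools MACS2 2.2.6, bedtools 2.30, Picard 2.26.10, SAMtools 1.14 and Bowtie2 2.3.5.1. Not given in the sources used here are the order of steps, the peak threshold, the use of IgG and how clones and stages were combined. These choices set how many regions each list holds.

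Starts were converted to count from 1. Gene spans, starts and promoter windows came from RefSeq (GRCm38.p6), and 2 scaffold regions outside the placed chromosomes were dropped. Assigned were 27471 DE only, 5383 PS and DE, 1427 PS only and 335 EPI and PS regions. The assignment rule was tested on simulated positions against a direct search. Work used Python 3.11.15, pandas 2.3.3, numpy 2.4.6 and scipy 1.17.1.

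Named are genes with a region bound in PS, the 10 with the most DE only regions (others for their role), genes with 0 regions, and, of the other 2 lists, leading genes. Some genes of these lists that the rule names are not reported here, so their totals are left out, and Ep300 was added after its values were seen. The members and lists were chosen with earlier results of these data known. No tests were run. Alternatives covered region width, merging, the assignment rule and distance, gene types and the leading gene.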

Additional observations from a re-analysis of the deposited data

How the results depend on the processing

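Of 98 alternative values, 82 stayed within 1.5 times the reported count or density, or inside the Wilson interval of the reported share. These limits are loose. The 82 include the EPI and PS counts, which were 0 in every setting, and a fall from 96 to 67 DE only regions with gene spans alone. The interval of the PS and DE share near a gene end was wide, at 1.37 to 33.3. The 16 that moved came from the 2 width limits, which by construction keep fewer regions. With regions of at least 150 bp, the receptor genes held 0 PS only, 5 PS and DE and 39 DE only regions, in 0, 5 and 18 genes, with 19 genes in any list. With regions no narrower than the median of their list, these were 1, 6 and 60 regions, with 1 gene for PS only and 5 for PS and DE. The share of PS and DE regions near a gene end was 0 with both limits, and the median DE only density fell from 1.43 per 100 kb to 0 and 0.629. Merging within 500 bp, any base in place of the midpoint, 50 kb, 1 Mb, the nearest end, gene spans alone, all annotated genes, a 2.5 kb window and leaving out the leading gene moved none of the values they were run on by more than that. The lists carry no depth, so whether a gene without a region was unbound cannot be told from them. No paired analysis was possible because the lists hold no values per library.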

Other observations

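Some receptor genes are chromosomal neighbours, and their counts differed, as did their territories. These were 50.65 kb for Nr5a1 and 210.3 kb for Nr6a1, and 32.83 kb for Thra and 16.51 kb for Nr1d1. Thrb had 561.2 kb and Nr1d2 131.4 kb. The part of territory length in these differences was not tested. On chromosome 2, Nr5a1 (38692656 to 38714542) held 0 regions and the adjoining Nr6a1 (38723369 to 38926461) held 4. On chromosome 11, Thra and Nr1d1 overlap at their ends and held 4 and 1 DE only regions, and that of Nr1d1 lay 3.75 kb from Thra. On chromosome 14, Thrb and Nr1d2 held 5 and 1 regions, and the regions bound in PS were 1 PS only at Thrb and 1 PS and DE at Nr1d2.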
